A study of Mus musculus with 8 samples.

Results

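The genes of this account move fluid, bicarbonate and bile constituents in the biliary tree and at the bile canaliculus. The list named 10 mouse symbols, and 9 of them were found by exact symbol match among the 18671 genes of the expression table. Of these 9, 5 act in bile duct secretion (Cftr, Slc4a2, Ano1, Aqp1 and Sctr) and 4 are ABC transporters of hepatocytes and bile ducts (Abcb11, Abcc2, Abcc3 and Abcb4). Expression of Slc10a2, the apical bile acid uptake carrier of cholangiocytes, was not analysed here. The rule names genes by symbol and uses no value, although earlier results of these data were known when the list was drawn up. The cells were BMEL cells, a mouse embryonic liver line able to differentiate towards hepatocytes or cholangiocytes, cultured on collagen with EGF, IGFII and insulin. RNA-seq was performed 48 h after transfection in 4 samples that received the GRHL2 plasmid, coding for the human grainyhead-like transcription factor GRHL2 fused to a Flag tag under the EEF1A1 promoter together with enhanced green fluorescent protein, and in 4 samples that received the pcDNA3 control plasmid. The plasmids therefore differ by more than the GRHL2 cDNA, transfection was transient, and the share of transfected cells is not known from the table. Samples were numbered 1 to 4 in each group.

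Bile is formed in 2 steps. Hepatocytes pump bile salts, phospholipids and organic anions across the canalicular membrane through ABC transporters, and cholangiocytes then add chloride, bicarbonate and water along the ducts. In cholangiocytes, secretin binds its receptor, cyclic AMP rises, the chloride channel CFTR opens and the anion exchanger AE2, encoded by Slc4a2, trades chloride for bicarbonate, with water following through aquaporins. ATP acting on purinergic receptors raises calcium and opens a second chloride channel, anoctamin 1.

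At the RNA level, GRHL2 transfection changed 2 of the 9 genes in the comparison of groups, and both encode transporters of the canalicular membrane. Abcb4, which encodes the phospholipid floppase of the canalicular membrane, rose by 0.36 on the log2 scale, and Abcc2, which encodes the canalicular organic anion pump MRP2, fell by 0.41 on the log2 scale (limma, adjusted p = 0.0110 and 0.0141, n = 4 per group). The other 7 genes, which include all 5 bile duct genes, did not pass the test. Across the table, 16.4% of genes were called at an adjusted p under 0.05, 10.5% as higher and 5.91% as lower, so that 1 higher and 1 lower gene among 9 is near this background. The samples of the groups did not overlap for Abcb4 and Sctr, which were higher, and for Abcc2, which was lower, as for 14.3% (higher) and 9.47% (lower) of all genes, or 23.8% in either direction. When the replicate number was entered as a block, Ano1, Aqp1 and Sctr were called higher as well, against 18.2% of all genes called higher in that fit, 13.9% called lower and 32.1% called in either direction.

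The promoters of the 2 called genes are shown because the transfected factor binds DNA and these are the genes whose RNA changed. Sequences are those of RefSeq on GRCm38.p6, plus strand, and end at the base before the first annotated GENCODE transcript start (Abcb4, chr5:8893471-8893716, and Abcc2, chr19:43782058-43782191). Capitals mark a match to CNGGTT, the shorter form of the grainyhead consensus, of which the Abcb4 stretch holds 1 and the Abcc2 stretch none on either strand.
Abcb4: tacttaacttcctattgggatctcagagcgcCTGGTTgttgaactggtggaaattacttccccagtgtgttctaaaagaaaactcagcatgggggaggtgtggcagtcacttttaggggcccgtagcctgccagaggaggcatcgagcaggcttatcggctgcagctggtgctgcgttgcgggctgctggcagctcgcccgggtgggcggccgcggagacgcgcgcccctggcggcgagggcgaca
Abcc2: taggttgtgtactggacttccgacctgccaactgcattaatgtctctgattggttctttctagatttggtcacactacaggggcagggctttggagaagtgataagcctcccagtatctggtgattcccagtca

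The 250 bases before each RefSeq start were searched on both strands for 3 motifs in the 9 promoters listed for 8 of the 10 symbols (Slc4a2 has 2, and Abcc3 and Sctr were not matched). The full palindrome AACCGGTT was in none of them and in 0.116% of all 32851 promoters. The looser AACNNGTT, which contains it, was also in none, against 3.64% of all promoters. The shorter CNGGTT, which overlaps both, was in 3 of the 9 (Abcb4, Ano1 and Cftr), against 33.9% of all promoters. These windows are a description of letters near the start sites, and binding was not measured in these samples.

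The transfection was visible in the Grhl2 row (ENSMUSG00000022286, GRCm38 chromosome 15, 37233036 to 37363569), at 6.30, 6.96, 5.65 and 6.05 in GRHL2 replicates 1 to 4, and at 4.68, 4.57, 4.42 and 4.44 in pcDNA3 replicates 1 to 4. All GRHL2 samples lay above all control samples (log2 difference 1.71, standard error 0.22, limma adjusted p = 0.00100). How many of these reads come from the human cDNA of the plasmid is not known. Values are on a log2 scale and are scaled by transcript length, so that levels of different genes can be compared, and the depth of the samples is unknown.

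The labelled cell type was checked against marker lists. All 16 cholangiocyte markers were in the table, with a summed level of 15.60 to 15.88 in control samples and 15.95 to 16.09 in GRHL2 samples. Of the 16, 6 were called higher and none lower, where 10.5% of all genes were called higher and 5.91% lower. These 6 were Epcam (log2 difference 1.75), Cldn4 (1.71), Krt7 (0.44), Muc1 (0.33), Prom1 (0.29) and Cdh1 (0.29), and the other 10 did not pass the test. The hepatocyte list had 13 of 16 markers in the table and a summed level of 11.43 to 11.56 in control and 11.39 to 11.58 in GRHL2 samples, with Ass1 called higher (0.30) and Afp lower (-0.21). Hnf4a, at 11.16 in control samples, made up most of this sum, Alb stood at 5.25, and 6 of the 13 were below 2 before scaling by length. Of the mesenchymal list, 8 of 13 were found, 2 were called higher and 1, Vim, lower, and the summed level was 15.23 to 15.39 in control and 14.88 to 15.00 in GRHL2 samples. Endothelial markers were low (6 of 8 found, summed level 4.61 to 4.64 in control and 4.59 to 4.70 in GRHL2 samples). In control samples Pecam1 was their highest at 3.33, and Cdh5 was at 1.23. Of the haematopoietic markers 7 of 10 were found (summed level 6.64 to 6.81 in control and 6.81 to 6.88 in GRHL2 samples). Ptprc was low, at 0.90 in control samples, but Csf1r was at 4.48. Cd68 stood at 6.08 in control and 6.25 in GRHL2 samples, at percentile 48.0 of all genes. The cholangiocyte, mesenchymal and haematopoietic sums did not overlap between groups, as for 23.8% of single genes across the table. Each of these sums was made up mostly of 1 gene. These were Krt19 (15.05 in control samples, not called, limma adjusted p = 0.0732), Vim (15.28) and Cd68. The 2 mesenchymal genes called higher, Pdgfrb and Reln, rose by 0.11 each. The part of these sums in the transporter results was not tested.

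In control cells the 9 genes spanned 10.92 log2 units, and their order was Ano1, Slc4a2, Abcc3, Aqp1, Abcc2, Abcb4, Sctr, Cftr and Abcb11. The control samples of each gene lay apart from those of the next gene in this order, the closest neighbours being Ano1 and Slc4a2 (means 0.20 apart). By the mean over all 8 samples, Ano1, Slc4a2 and Abcc3 were among the highly expressed genes, at the 94.5th, 93.0th and 90.6th percentile of all genes. The percentiles that follow also use the mean over all 8 samples. Aqp1 stood at percentile 63.2, Abcc2 at the 44.9th and Abcb4 at the 29.7th. The other 3 genes were the lowest, with Sctr at the 15.7th percentile, Cftr at the 9.76th and Abcb11 at the 5.08th. Before scaling by length, which places long transcripts such as that of Cftr lower, these 3 stood at percentiles 20.1, 24.5 and 16.8.

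**Figure D1:**
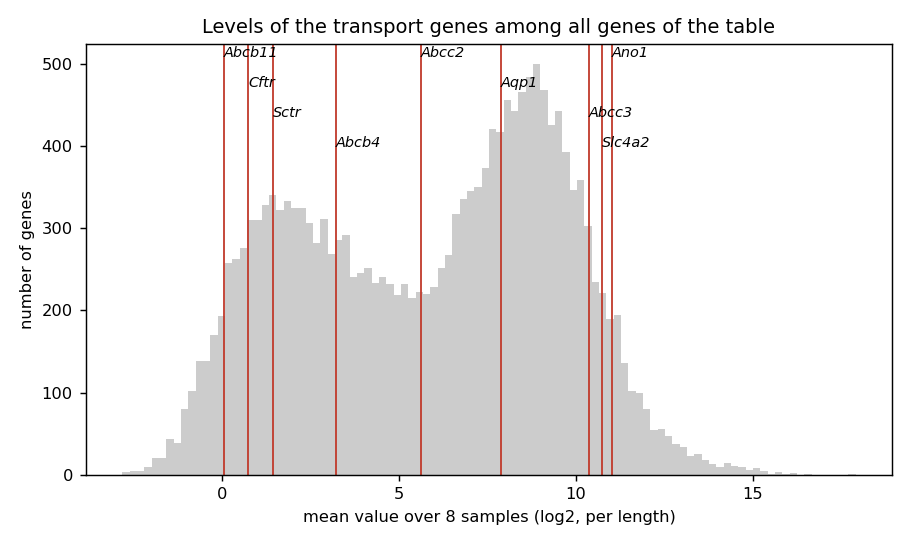
Distribution of the mean value over 8 samples (horizontal axis, log2 per transcript length) of all 18671 genes (vertical axis, number of genes), with a red line at each of the 9 transport genes. Abcb11, Cftr and Sctr sit at the low end, between 0.055 and 1.45, whereas Abcc3, Slc4a2 and Ano1 sit between 10.36 and 11.03.

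The lower limit depends on transcript length. After the log2 of mean transcript length in kb was added back, the lowest genes (1st percentile) stood at 0.33, close to the 0.32 of 10 reads spread over 8 samples, the filter given in the methods. On that scale the 3 lowest genes were low but above the limit. Sctr was at 2.39, Cftr at 2.92 and Abcb11 at 2.01, or, read as the log2 of a read number, about 5.24, 7.57 and 4.03 reads per sample. Abcb4 was at 4.57, or about 23.8 reads, and Abcc2 at 6.84, or about 115 reads. The rlog transformation shrinks differences of such low genes. Among the 2868 genes between 2 and 4 on this scale, the median absolute difference between groups was 0.041 and the 95th percentile 0.19, whereas among the 2025 genes between 4 and 6 they were 0.085 and 0.44. Differences of Cftr, Sctr and Abcb11 can therefore be compressed in this table.

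Abcb4 (ENSMUSG00000042476, GRCm38 chromosome 5, 8893717 to 8959231, plus strand) encodes MDR2, which moves phosphatidylcholine into bile and protects the duct epithelium from bile salts. It stood at 3.53, 3.53, 3.18 and 3.33 in GRHL2 replicates 1 to 4 and at 2.99, 3.13, 3.04 and 2.98 in pcDNA3 replicates 1 to 4. No control sample reached the lowest GRHL2 sample, and GRHL2 replicates 1 and 2 were the highest. With means of 3.39 ± 0.17 in GRHL2 and 3.03 ± 0.070 in control cells (SD, n = 4 each), the log2 difference was 0.36 (standard error 0.075, limma adjusted p = 0.0110; exact permutation test, two-sided, p = 0.0286, the smallest that 4 against 4 samples allow). It came to 0.47 within replicates 1 and 2 alone, and to 0.25 within the other 2. The absolute difference was larger than that of 96.3% of all genes. In bulk RNA, a change in the number of expressing cells and a change in RNA per cell cannot be told apart.

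Abcb4 lies in a cluster with the multidrug pumps Abcb1a and Abcb1b, which had log2 differences of 0.10 (adjusted p = 0.326, limma) and 0.0057 (adjusted p = 0.977) from control levels of 7.29 and 9.25. These neighbours were thus far more abundant than Abcb4, and neither passed the test. Abcb1a and Abcb1b are close paralogues of each other and related to Abcb4. The methods set a minimum alignment quality for counted reads, and how many reads shared by these genes it left out is not known.

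Abcc2 (ENSMUSG00000025194, GRCm38 chromosome 19, 43782192 to 43840740, plus strand) encodes the pump for conjugated bilirubin and glutathione conjugates. Its values were 5.31, 5.39, 5.42 and 5.55 in GRHL2 replicates 1 to 4 and 5.64, 5.80, 5.76 and 6.09 in pcDNA3 replicates 1 to 4. Every control sample was above every GRHL2 sample, and control replicate 4 was the highest. With means of 5.42 ± 0.098 in GRHL2 and 5.82 ± 0.19 in control cells (SD, n = 4 each), the log2 difference was -0.41 (standard error 0.090, limma adjusted p = 0.0141; exact permutation test, two-sided, p = 0.0286). Within replicates 1 and 2 it fell by 0.37 and within replicates 3 and 4 by 0.44. Abcc2 was lower in 4 of 4 same-numbered pairs, and Abcb4 was higher in 4 of 4.

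Abcb11 (ENSMUSG00000027048, GRCm38 chromosome 2, 69238282 to 69342616, minus strand), the bile salt export pump, was the lowest of the 9 genes. GRHL2 samples ran from 0.017 to 0.092 and control samples from 0.027 to 0.082. The groups overlapped, and 2 of 4 pairs were higher. The log2 difference of 0.0043 had a 95% interval of -0.040 to 0.049 (adjusted p = 0.911, limma).

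Abcc3 (ENSMUSG00000020865, GRCm38 chromosome 11, 94343295 to 94392997, minus strand) encodes MRP3, which returns organic anions across the basolateral membrane. Its GRHL2 samples stood at 10.27, 10.22, 10.45 and 10.52 and its control samples at 10.27, 10.28, 10.33 and 10.54, in the order of replicates 1 to 4. The groups overlapped, and in both the lowest samples were replicates 1 and 2. The log2 difference was 0.012 with a 95% interval of -0.17 to 0.20 (adjusted p = 0.940, limma), so that a change like those of Abcb4 and Abcc2 lies outside the interval of this abundant transporter.

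**Figure D2:**
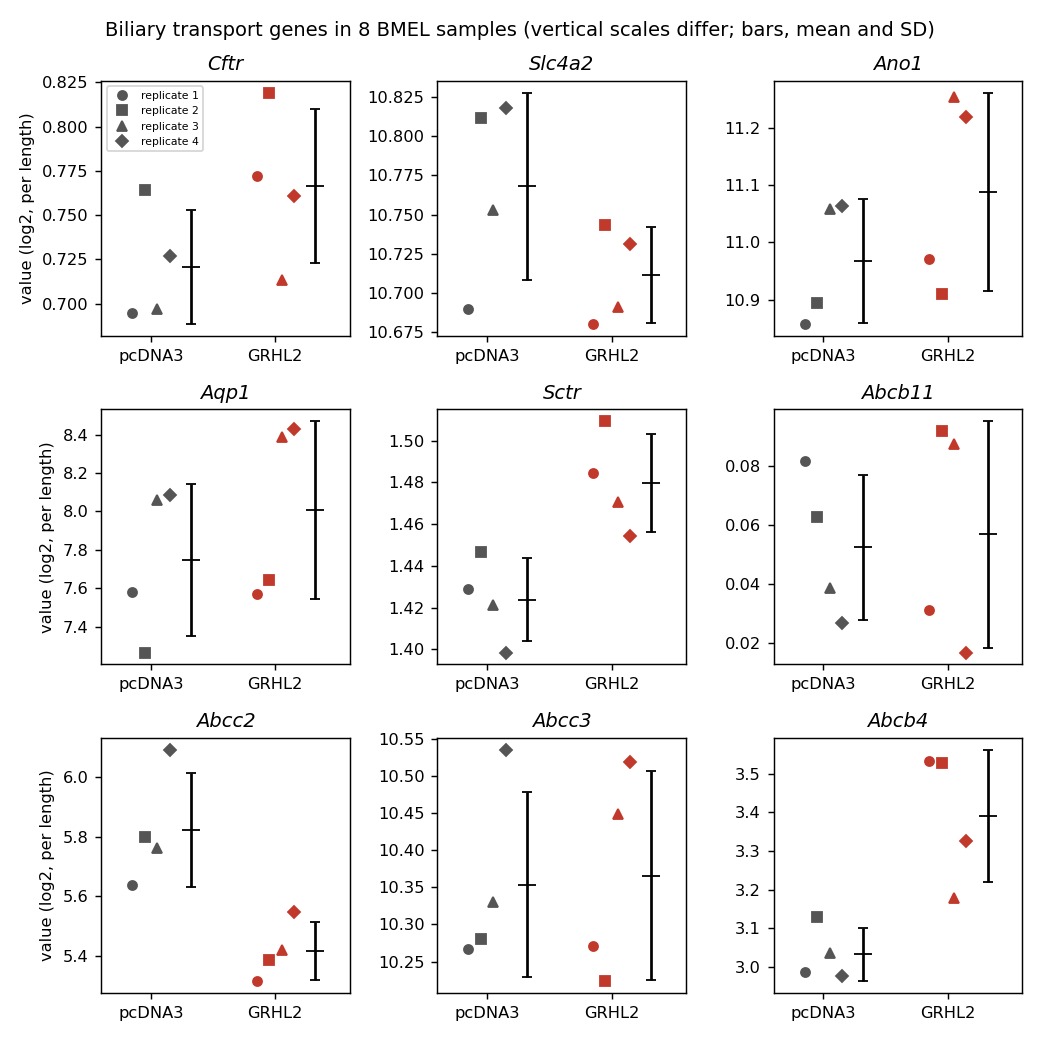
Value of each of the 9 genes (vertical axis, log2 per transcript length, with a scale of its own in each panel) in the 4 pcDNA3 samples (grey) and 4 GRHL2 samples (red), marker shapes giving the replicate number and bars the mean and SD. The groups lie apart for Abcb4, Abcc2 and Sctr and overlap for the other 6, and Aqp1 separates replicates 1 and 2 from 3 and 4 in both groups.

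Among the bile duct genes, the secretin receptor gene Sctr (ENSMUSG00000026387, GRCm38 chromosome 1, 120006894 to 120063536, plus strand) was the only gene with groups that lay apart. It was at 1.484, 1.509, 1.471 and 1.454 in GRHL2 replicates and at 1.429, 1.446, 1.421 and 1.398 in control replicates. Its log2 difference was 0.056 with a standard error of 0.018 (limma adjusted p = 0.0620 without and 0.0399 with the block; exact permutation test, two-sided, p = 0.0286). Correction for the GC content of transcripts lowered the difference to 0.023, and the adjusted p was then 0.523 without the block.

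Cftr (ENSMUSG00000041301, GRCm38 chromosome 6, 18170687 to 18322768, plus strand), the cyclic AMP-gated chloride channel, stood at 0.772, 0.819, 0.713 and 0.761 in GRHL2 replicates and at 0.695, 0.764, 0.697 and 0.727 in control replicates. Each GRHL2 sample was above the control sample of its number, although the groups overlapped. The log2 difference had a 95% interval of -0.0074 to 0.099 (adjusted p = 0.224, limma) around a mean of 0.046, which ran from 0.028 to 0.064 with a sample left out. With the correction for GC content it was 0.079 and the adjusted p 0.0337.

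Aqp1 (ENSMUSG00000004655, GRCm38 chromosome 6, 55336432 to 55348555, plus strand), the water channel of duct cells, was at 7.57, 7.64, 8.39 and 8.43 in GRHL2 replicates 1 to 4 and at 7.58, 7.26, 8.06 and 8.08 in control replicates 1 to 4. In each group replicates 3 and 4 were the high samples, by 0.80 in GRHL2 and by 0.65 in control cells. This split, shared by both groups, was larger than the difference between groups, which was 0.26 (standard error 0.24, adjusted p = 0.509, limma) and ran from 0.099 without pcDNA3 replicate 2 to 0.41 without GRHL2 replicate 1. With the replicate number as a block the standard error was 0.064 and the adjusted p 0.0143, with 3 of 4 pairs higher and pair 1 at -0.0093. Within replicates 1 and 2 the difference was 0.19, and within replicates 3 and 4 it was 0.33.

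Ano1 (ENSMUSG00000031075, GRCm38 chromosome 7, 144588549 to 144751974, minus strand), the calcium-activated chloride channel, was the most abundant of the 9 genes. GRHL2 replicates 1 to 4 were at 10.97, 10.91, 11.25 and 11.22 and control replicates at 10.86, 10.89, 11.06 and 11.06. Here too replicates 3 and 4 were above 1 and 2 in both groups, and every GRHL2 sample was above its numbered control. The log2 difference was 0.12 (limma adjusted p = 0.387, 0.0359 when blocked by replicate number, and 0.0692 when blocked and corrected for GC content). It ran from 0.066 to 0.18 with a sample left out.

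Slc4a2 (ENSMUSG00000028962, GRCm38 chromosome 5, 24423837 to 24440950, plus strand), the chloride and bicarbonate exchanger, ranged from 10.68 to 10.74 in GRHL2 samples and from 10.69 to 10.82 in control samples. The groups overlapped, with each GRHL2 sample below its numbered control. The log2 difference was -0.056, with a 95% interval of -0.16 to 0.043 (adjusted p = 0.432, limma). Correcting for GC content moved the difference to -0.10 (limma adjusted p = 0.142 without and 0.0334 with the replicate block). Of its 8322 annotated exon bases, 1141 are shared with Fastk on the other strand, where reads counted without regard to strand cannot be assigned. None of the other 8 genes shares exon bases with a gene of the table.

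**Figure D3:**
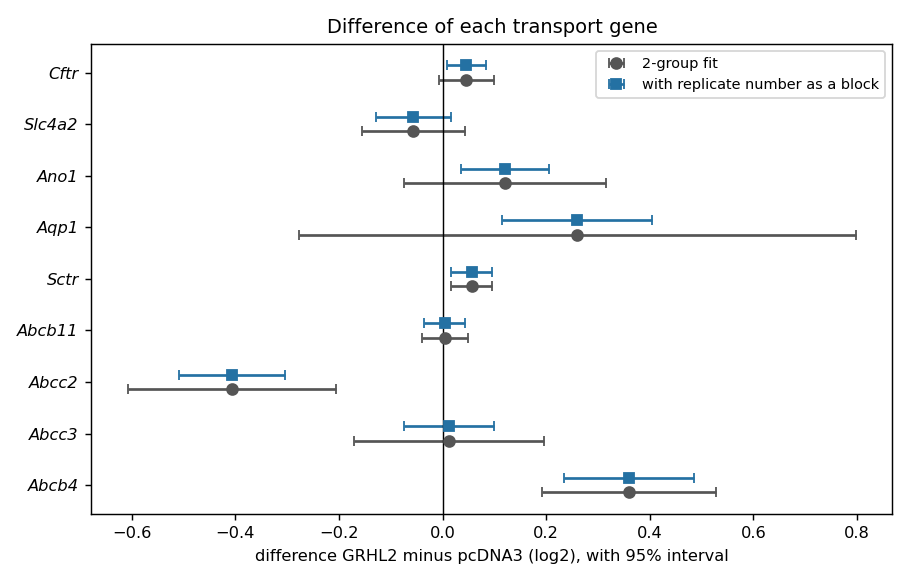
Difference GRHL2 minus pcDNA3 on the log2 scale (horizontal axis) for each gene, with the 95% interval of the fit of 2 groups (grey circles) and of the fit with the replicate number as a block (blue squares). The intervals, which are not adjusted over genes, exclude 0 in both fits for Abcb4, Abcc2 and Sctr, and the interval of Aqp1 narrows from -0.28 to 0.80 without the block to 0.12 to 0.40 with it.

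The secretory apparatus around these genes was followed in 8 lists of related genes, of which 118 different genes were found. Of these, 28 were called higher, 4 lower and 86 did not pass the test (27.1% called). Of all genes, 16.4% were called, 10.5% higher and 5.91% lower. Their median log2 difference was 0.052, against 0.0066 for all genes and 0.046 for the 9 transport genes.

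Signalling genes of duct secretion held the largest rises. Of 24 genes found, 9 were called higher and none lower (median log2 difference 0.092), where 10.5% of all genes were called higher and 5.91% lower. With the replicate block 11 were higher and 1, the protein kinase A subunit gene Prkar2a, lower (-0.15, adjusted p = 0.00750, limma). In that fit 18.2% of all genes were called higher and 13.9% lower. Adcy5, an adenylyl cyclase that makes cyclic AMP, rose by 1.30, from 3.60 ± 0.038 to 4.90 ± 0.31 (SD, n = 4 each, limma adjusted p = 0.000234). The purinergic receptor genes P2ry6 and P2ry2 rose by 0.87 and 0.81 (adjusted p = 9.79e-05 and 0.000246, limma). The other 6 called genes, Rapgef3, Adcy8, Vipr1, P2ry1, Pde4d and Itpr2, are named to complete the count after their values were seen, and rose by 0.21 to 0.63. Vipr1 and P2ry1 were low, at 3.67 and 4.40 before scaling by length. The bile acid receptor gene Gpbar1 and the calcium release channel gene Itpr3 had differences of 0.024 and 0.097 and did not pass the test. These 2 and Prkar2a, like Abcb1a and Abcb1b above and Car2, Slc10a1, Nr1h4, Nr0b2 and Hnf4a in the paragraphs that follow, were also chosen after their values were seen.

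Of 24 further ductal channels, exchangers and pumps, 7 were called higher and none lower. Across the table, 10.5% of genes were called higher and 5.91% lower. Before scaling by length, Slc9a2, Slc26a3, Kcnn2 and Fxyd2 stood between 2 and 4 (2.06, 2.05, 2.99 and 3.24). Of the 2868 genes in this low range, 546 were called higher and 69 lower, so rises prevail among such calls in general. Aqp8, a water channel of hepatocytes and ducts, rose from 6.53 ± 0.095 to 6.99 ± 0.041 (SD, n = 4 each; log2 difference 0.46, limma adjusted p = 0.000547). Fxyd2, a regulatory subunit of the sodium pump, rose by 0.22 and the sodium and proton exchanger gene Slc9a2 by 0.10 from a low control level of 0.53 (adjusted p = 0.00758 and 0.0104, limma). The other 4 were the sodium, potassium and chloride cotransporter gene Slc12a2, the anion exchanger genes Slc26a6 and Slc26a3 and the potassium channel gene Kcnn2, with rises of 0.082 to 0.20, named after their values were seen. Slc26a6 did not pass with the correction for GC content (adjusted p = 0.0637, limma). Car2, the carbonic anhydrase that supplies bicarbonate, had a difference of 0.045 (adjusted p = 0.680, limma).

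Of 15 apical scaffold and traffic genes, 2 rose and 1 fell, near the 16.4% of all genes called. Vamp8, a vesicle fusion protein gene, rose by 0.36 and Rab11a, which encodes the small GTPase of apical recycling endosomes, by 0.25 (adjusted p = 0.0138 and 0.0276, limma). Pdzk1, a scaffold for apical transporters, fell by 0.10 on the log2 scale from 2.79 (adjusted p = 0.0432, limma). With the replicate block, 6 genes of this list were higher and 4 lower, where 18.2% of all genes were called higher and 13.9% lower.

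Of the 9 canalicular export partners found, 1 was called higher and 1 lower, where 10.5% of all genes were called higher and 5.91% lower. Atp8b1, a phospholipid flippase of the canalicular membrane, rose from 3.64 ± 0.069 to 4.03 ± 0.054 (SD, n = 4 each; log2 difference 0.40, limma adjusted p = 0.000361). Abcg2, a pump for sulfated compounds and drugs, fell by 0.21 on the log2 scale from 9.83 (adjusted p = 0.0284, limma). The other 7 genes found of the 11 listed did not pass the test.

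Of 11 sinusoidal and basolateral carriers found among 17, 2 were called higher, 1 lower and 8 did not pass the test. Of all genes, 10.5% were called higher and 5.91% lower. The organic anion transporter genes Slco3a1 and Slco4a1 rose by 0.26 and 0.23 (adjusted p = 0.00689 and 0.00428, limma). Abcc4, which encodes the basolateral pump MRP4, fell by 0.29 on the log2 scale (adjusted p = 0.00305, limma). Slc10a1, the hepatocyte bile salt uptake carrier gene, was low, at 1.34 in control samples, with a difference of -0.027. Among the ABC exporters described so far, Abcc2, Abcc4 and Abcg2 were called lower and Abcb4 higher. Abcb11, Abcc3, Abcb1a and Abcb1b did not pass the test.

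Among 18 nuclear receptor and liver factor genes that control bile transporters, 3 rose and none fell, a share close to the 16.4% of all genes called. The vitamin D receptor gene Vdr rose by 0.45, the retinoid X receptor gene Rxra by 0.21 and Foxa1 by 0.21 (adjusted p = 0.000546, 0.0116 and 0.0320, limma), although Foxa1 did not pass with the correction for GC content (adjusted p = 0.121). Nr1h4, which encodes the bile acid receptor FXR, had a difference of -0.13 (adjusted p = 0.111, limma) from 7.08, and its target Nr0b2 one of -0.036. Hnf4a, at 11.16 in control samples, had a difference of -0.0029 (adjusted p = 0.983, limma).

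**Figure D4:**
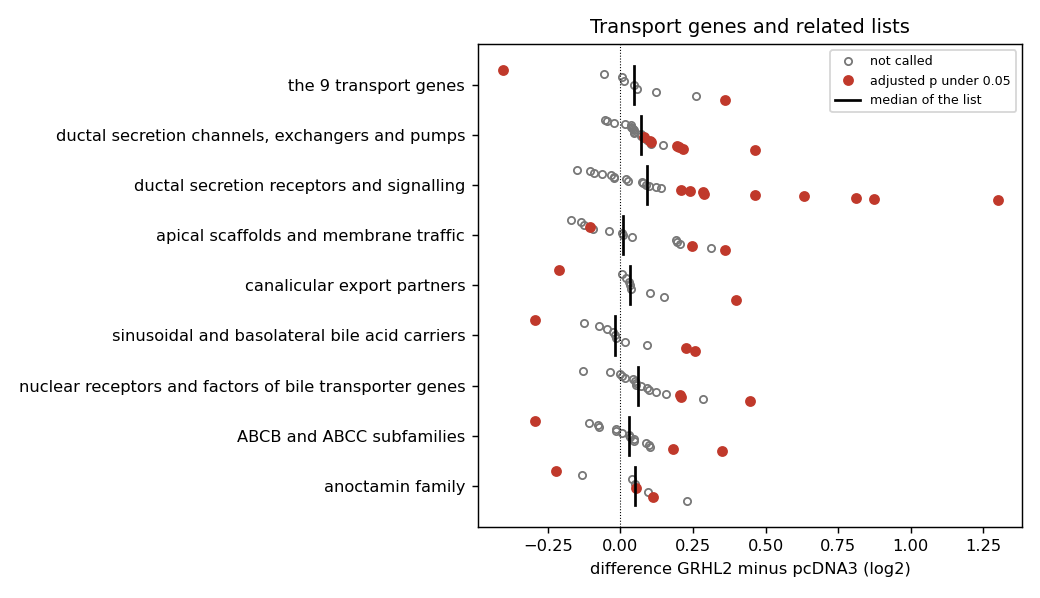
Difference GRHL2 minus pcDNA3 on the log2 scale (horizontal axis) of every gene found in the 9 transport genes and the 8 related lists (rows, a gene can stand in more than 1 row), filled red where the limma adjusted p was under 0.05, with a black line at each median. Signalling genes reach the largest difference, 1.30 for Adcy5, and no signalling or ductal channel gene was called lower in this fit without the block.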

How the data were processed

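Per the methods, HISAT2 placed the reads of the 8 samples on mm10, HTSeq counted them over exons, ignoring strand, and genes below 10 cumulated reads were left out. HISAT2 2.2.1, HTSeq 0.9.1 and DESeq2 1.40.2 are named in the submitters' processing notes, whereas the methods give other versions of HISAT2 and DESeq2. This description was written for public data and is assumed to hold for BMEL cells. The authors deposited values that were read as log2 values (DESeq2 rlog less the log2 of transcript length), since 7190 of 149368 are below 0 although the table is named for FPKM. The rlog understates differences of genes with few reads, and read totals, hence depth, are unknown.

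No pseudocount and no filter on low values was applied. All 18671 genes were fitted with limma 3.58.1 in R 4.3.3 (2 groups, mean-variance trend, Benjamini-Hochberg adjustment over all genes, adjusted p under 0.05). On simulated data with the real means and spreads, 88 of 100 genes changed by 0.5 and all 100 changed by 1 on the log2 scale were recovered, with 11 false calls among 18471 unchanged genes. The simulated noise was independent between samples, and shifts were added to log2 values without rlog shrinkage. These rates therefore need not hold for low genes such as Cftr, Sctr and Abcb11. Nor need they hold for genes with a replicate split such as Aqp1. Same-numbered samples deviated together from their group means (Pearson's r across genes 0.474 to 0.645 in the 4 pairs). The mean r for different numbers, -0.183, is largely fixed by the centring of each group and is no separate contrast. Because of the shared deviations, the numbers, taken from the labels, were used as a block beside the main fit. The replicates are described as independent biological replicates. The limma p-values set each group difference against the spread between these samples, drawn towards the mean-variance trend of all genes. In the block fit this is the spread left after the replicate number. Lengths and GC content were GENCODE M21 means over transcripts (18428 genes), and exon overlaps were read from the same annotation. GRCm38 is the mm10 assembly.

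The genes and lists were chosen with earlier results of these data known. All members are named, and from each list the called gene with the largest rise, the one with the largest fall and up to 2 more by adjusted p, with others marked where they occur. For each called member the 3 genes with the closest centred profile are named. Alternatives were the replicate block, scaling to the same upper quartile or to the same sum of linear values, each sample left out, no trend, a mean value of at least 0, a GC correction without and with the block, and a term for replicates 1 and 2 against 3 and 4.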

Additional observations from a re-analysis of the deposited data

How the results depend on the processing

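Abcb4 and Abcc2 were called in the same direction under all 16 alternatives, with log2 differences of 0.31 to 0.43 (adjusted p 0.000711 to 0.0367, limma) and -0.47 to -0.32 (0.000353 to 0.0423). Of the 144 results of single genes under an alternative, 122 kept direction and side of the threshold, 12 became called and 10 changed sign, these being uncalled values of Abcb11 (-0.0074 to 0.018 with a sample left out, with negative values of -0.0074, -0.0059, -0.00026 and -0.0043) and Abcc3 (-0.039 to 0.073 with a sample left out, with negative values of -0.015, -0.039, -0.016 and -0.012, and -0.012 with the GC correction, without or with the block). Genes that became called were Sctr (equal upper quartile, equal sum, block, term for the split), Ano1 and Aqp1 (block, term), Aqp1, Cftr and Slc4a2 (GC correction with block) and Cftr (GC correction).

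Higher transport genes numbered 2 with an equal upper quartile, an equal sum or the GC correction, 4 with the replicate block or the term for replicates 1 and 2 against 3 and 4, and 3 with the GC correction and block, where 2 were lower, against 1 and 1. Across the table the block gave 3396 higher and 2589 lower genes, the term 3270 and 2478, and the GC correction with block 3122 and 2763, against 1957 and 1104, and the equal upper quartile gave 3064 higher. Higher calls made up 63.9% of calls, 75.9% with the equal upper quartile and 77.0% with the equal sum. With a sample left out, 1326 to 1848 genes were higher and 690 to 1036 lower. Of the related genes, 45 were higher and 8 lower with the block, 45 and 8 with the term, and 9 lower with the GC correction and block, against 28 and 4, and with a sample left out 20 to 29 were higher and 2 to 5 lower, the fewest lower genes, in the lists (2) and across the table (690 to 722), being found without GRHL2 replicate 1, 3 or 4 or pcDNA3 replicate 1. The cause of these changes was not tested. Sctr, Cftr and Abcb11 are low genes, whose differences the rlog can shrink. Of the genes between 2 and 4 before scaling by length, where these 3 lie, 21.4% were called, against 16.4% of all genes. The part of low level in their results was not tested.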

Other observations

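Relatives of the transport genes were followed in 2 of the lists. Of the 16 other ABCB and ABCC genes found, 2 were called higher, 1 lower and 13 did not pass the test (median log2 difference 0.030). This is near the 16.4% of all genes called, 10.5% as higher and 5.91% as lower. Abcb9, which encodes a lysosomal peptide transporter, rose from 4.36 ± 0.0049 to 4.71 ± 0.11 (SD, n = 4 each; log2 difference 0.35, limma adjusted p = 0.00178), close in size to Abcb4. The mitochondrial transporter gene Abcb10 rose by 0.18 (adjusted p = 0.0147, limma), and Abcc4 was the only one lower. Of the 8 other anoctamins found, 2 were called higher and 1 lower, where 10.5% of all genes were called higher and 5.91% lower. Ano9 and Ano4 rose by 0.11 and 0.055, both from low levels. Ano6, the calcium-activated phospholipid scramblase, fell by 0.22 on the log2 scale from 11.21 ± 0.087 (SD, n = 4, limma adjusted p = 0.0149). Ano6 was thus called lower while Ano1, at a like level in these cells, was not called in the comparison of groups, and the difference between the 2 genes was not tested.

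The genes whose centred values lay closest to those of Abcb4 over the 8 samples were L1cam, Usp27x and Prrx1, with root mean square differences of 0.032, 0.040 and 0.047 on the log2 scale and log2 differences between groups of 0.37, 0.38 and 0.36. For Abcc2 they were Col20a1, Gnb5 and Zkscan14, at 0.093, 0.096 and 0.097, with log2 differences of -0.41, -0.33 and -0.35. These are descriptions of profiles in 8 samples. The genes were picked by closeness over these same samples, which hold the difference between groups, so that like log2 differences follow from the choice. In the 18 groups of 4 samples of the transport genes, no sample was set apart from the others by the Dixon gap test, where about 1 in 20 groups is expected by chance.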
